A study of Mus musculus with 2 samples.

Results

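Peroxisomes multiply by division, and the proteins of their membrane decide which fatty acids enter and which shortened products leave. Expression of 8 mouse genes of these functions was compared between small intestines of mice fed EPA&DHA or a control diet: Pex11a and Pex11g (peroxisome division), Abcd2 and Abcd3 (ABC transporters of fatty acyl-CoA), Pxmp2 and Pxmp4 (membrane proteins), Slc25a17 (a carrier of coenzyme A and other nucleotide cofactors) and Crot (carnitine octanoyltransferase). The genes were chosen by function, with earlier results of these data known. All probesets (sets of short probes that together read 1 transcript) whose annotated gene was one of them were taken. These were 18 of the 45101 probesets on the array, and the array named 18194 genes in all. An older name of Pxmp2, PMP22, is today the symbol of peripheral myelin protein 22, and the bright probeset of that other gene was left out.

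Male mice of the inbred strain C57BL/6J, 4 months old, were fed diets with 20% fat by weight for 4 weeks. In the control diet all fat was flaxseed oil, whose main n-3 fatty acid ALA is the precursor of EPA and DHA, and in the EPA&DHA diet 44% of this fat gave way to a concentrate with 6% EPA and 51% DHA. Each diet was fed to 12 mice, and the RNA of 10 control and of 11 EPA&DHA mice was pooled, so that each diet was measured on 1 Affymetrix array. The arrays had no replicates, so the spread between mice is unknown and no test, SE or p-value was computed. Signals are in arbitrary units.

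Peroxisomes break down very long chain, branched and polyunsaturated fatty acids such as DHA, which mitochondria handle poorly. Pex11 proteins elongate the peroxisomal membrane before it is cut, and half-transporters of the Abcd family form pairs that bring acyl-CoA into the organelle. Chain-shortened products are passed on to carnitine by Crot and by carnitine acetyltransferase and can then travel to mitochondria. In rodents many genes of this organelle are targets of PPARα, a nuclear receptor that binds fatty acids.

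Pex11a and Pxmp4 had signals more than 2-fold higher on EPA&DHA, while the other 5 measured genes had smaller ratios, all above 1. Of the 8 genes, 7 were measured, meaning that at least 1 probeset lay among the brightest 54% of the array (24355 probesets with a mean signal of 50.9 or more), and Abcd2 was not. A gene is represented by its brightest retained probeset. Of the 7 measured genes, 2 passed 1.5-fold upward, against 6.18% of all 11698 measured genes, and 0 passed it downward, against 7.92%. The same 2 genes passed 2-fold, which 1.56% of all measured genes did. The median log2 ratio of EPA&DHA over control was 0.36 for the 7 genes and -0.05 for all measured genes. All 7 lay above 0, as did 43.5% of all measured genes, and so did all 12 retained probesets of these genes. In whole RNA from a tissue, a change in the number of cells of a type and a change in RNA per cell cannot be told apart.

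**Figure D1:**
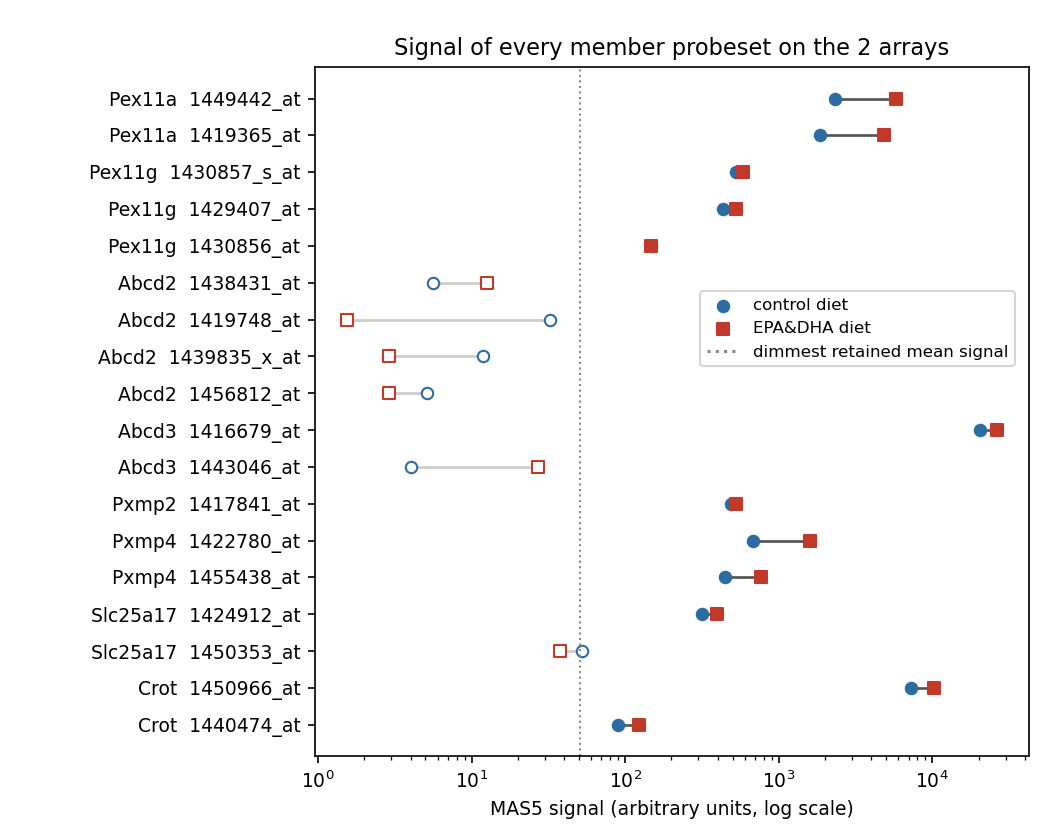
Signal of each of the 18 probesets (rows) on the control array (blue circles) and the EPA&DHA array (red squares), on a log axis in arbitrary units. Open symbols mark the 6 probesets that were not retained, and the dotted line is the dimmest mean signal retained, 50.9. The wide gaps among open symbols lie between very dim signals, and the widest gaps among filled symbols belong to Pex11a and Pxmp4.

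Pex11a, which drives the elongation and division of peroxisomes, was read by a pair of probesets with nearly the same ratio. Probeset 1449442_at had a control signal of 2325 and an EPA&DHA signal of 5768. Probeset 1419365_at had 1866 and 4868, in the same order. The ratios were 2.48 and 2.61, and their log2 values of 1.31 and 1.38 were 0.07 apart. Without replicates, the spread of the log2 ratios of the 500 probesets nearest in signal is given as a description. It is a robust SD from the scaled median absolute deviation, called the local SD here, and was 0.21 and 0.24. It spans different genes on the same pair of arrays, including any that changed with diet. It does not measure the spread between mice or arrays. Both ratios of Pex11a were thus more than 5 local SDs from 0, at 6.35 and 5.79. Only 83 of the 11698 measured genes had a higher ratio than Pex11a.

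Pex11g, the other family member measured, acts in the same process and had ratios close to 1. On its brightest probeset, 1430857_s_at, the control signal was 525 and the EPA&DHA signal 589. They were 433 and 525 on 1429407_at, and 147 and 148 on 1430856_at. The ratios of 1.12, 1.21 and 1.01 were all within 1 local SD of a log2 ratio of 0. The name of the brightest one marks probes that may bind related transcripts, and without it Pex11g stood at 0.28 on the log2 scale. The log2 ratio of Pex11a was therefore more than 1 unit above that of Pex11g on every pair of their probesets, although a difference between these genes could not be tested with 1 array per diet.

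The other member with a large ratio was Pxmp4, a small peroxisomal membrane protein whose function is less well known. Probeset 1422780_at had a control signal of 679 and an EPA&DHA signal of 1597, and 1455438_at had 446 and 769. Both probesets were higher on EPA&DHA, but to a different extent. The ratios were 2.35 and 1.72, with log2 values of 1.23 and 0.79, which were 4.86 and 2.83 local SDs from 0. The gap of 0.45 between them compares with a robust SD of 0.31 for the difference between the brightest and the next probeset of a gene, over the 2402 genes whose next probeset was in the brightest 25% of the table. By its brightest probeset Pxmp4 was exceeded by 95 measured genes, and by the mean of both its log2 ratio was 1.01.

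Pxmp2, which forms a pore for small solutes in the same membrane, had only 1 probeset, with a control signal of 491 and an EPA&DHA signal of 528. This is a ratio of 1.08, or 0.35 local SDs from a log2 ratio of 0. The pore protein thus lay lowest among the 7 measured members and Pex11a highest.

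**Figure D2:**
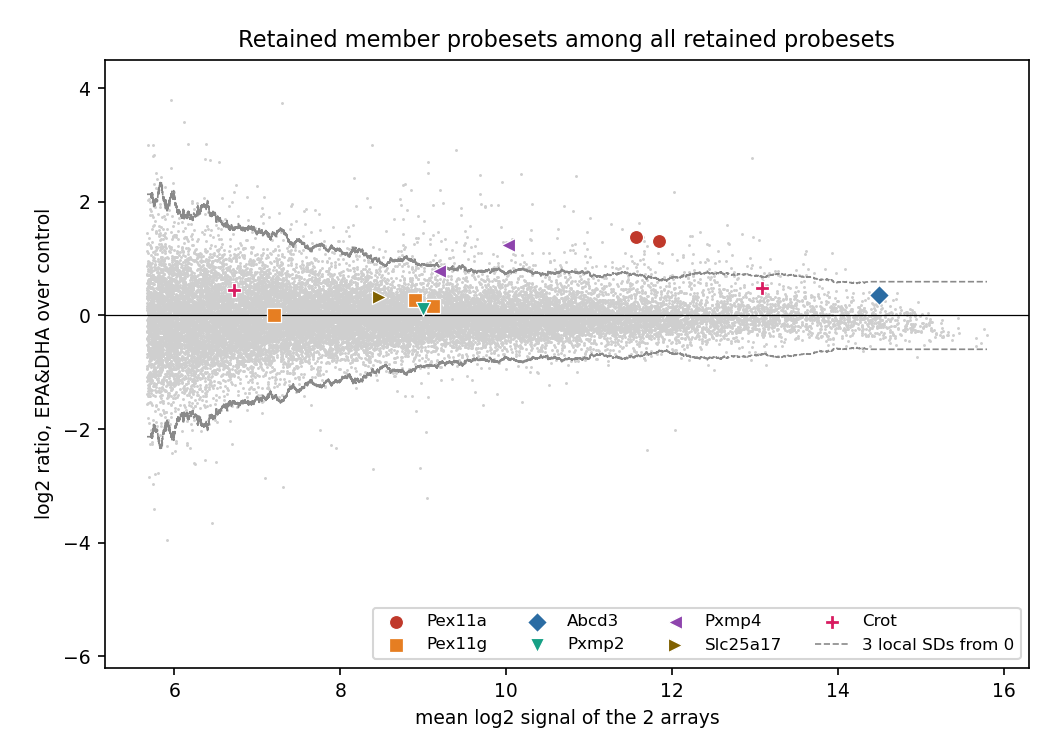
Log2 ratio of EPA&DHA over control (y axis) against the mean log2 signal of both arrays (x axis) for the 24355 retained probesets (grey) and the 12 of the genes described here (coloured symbols). Dashed lines lie 3 local SDs from 0. Both probesets of Pex11a and the brighter one of Pxmp4 lie above the upper line, and the other 9 lie between the lines.

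The promoters of Pex11a, Pex11g and Pxmp4 are shown because these are the members with the highest ratios and the family partner of Pex11a that stayed near 1. Each run holds 250 bases before and 50 after the start of the gene in RefSeq (GRCm38.p6), 5′ to 3′ on the strand of the gene, and 6 of the 8 genes had such an entry. Capitals mark AGGTCA, the half-site of nuclear receptors, and CCAAT, each on either strand.
Pex11a, chr7:79743082-79743381, minus strand: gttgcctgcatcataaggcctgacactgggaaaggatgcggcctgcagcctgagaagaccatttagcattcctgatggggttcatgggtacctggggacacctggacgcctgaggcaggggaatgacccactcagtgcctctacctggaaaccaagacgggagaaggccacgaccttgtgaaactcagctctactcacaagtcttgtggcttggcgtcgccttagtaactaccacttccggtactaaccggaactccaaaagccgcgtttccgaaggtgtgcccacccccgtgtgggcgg
Pex11g, chr8:3467599-3467898, minus strand: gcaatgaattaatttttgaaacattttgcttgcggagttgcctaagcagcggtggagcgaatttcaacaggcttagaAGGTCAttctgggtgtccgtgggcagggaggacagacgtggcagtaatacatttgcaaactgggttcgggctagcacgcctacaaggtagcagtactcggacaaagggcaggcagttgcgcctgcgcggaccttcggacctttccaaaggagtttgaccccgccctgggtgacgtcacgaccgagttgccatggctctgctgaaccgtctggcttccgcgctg
Pxmp4, chr2:154603624-154603923, minus strand: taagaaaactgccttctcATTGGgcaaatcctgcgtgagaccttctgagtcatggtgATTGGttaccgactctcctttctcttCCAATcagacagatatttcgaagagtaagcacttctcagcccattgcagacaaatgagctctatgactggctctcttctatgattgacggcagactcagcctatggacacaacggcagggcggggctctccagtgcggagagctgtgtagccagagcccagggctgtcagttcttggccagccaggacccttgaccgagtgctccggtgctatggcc

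The promoters differed in the motifs that they held. Pex11g held 1 AGGTCA, which 16.3% of all 32851 promoter windows hold. Pxmp4 held 3 copies of CCAAT, present at least once in 37.4% of windows, and Slc25a17 and Crot held 1 each. In Pex11a, CCGGAA, the core of the site of ETS factors, occurred 2 times, once on each strand and close to the start of the gene, and it is found in 14.9% of windows. Slc25a17, Crot and 1 window of Abcd3 held it 1 time each. The GC box GGGCGG, present in 35.7% of windows, was held by Pex11a, Pex11g, Pxmp4, Slc25a17 and Crot, the cyclic AMP response element TGACGTCA by Pex11g (1.79% of windows) and the TATA box TATAAA by none of the windows of these genes (13.6% of all windows). All were searched on both strands, and none of these matches overlapped another. PPARα with its partner RXR binds the direct repeat AGGTCANAGGTCA, and the best window of each promoter was searched on both strands over its 12 fixed letters. The best windows were cGGTCAagGGTCc in Pxmp4 and cGGaCAaAGGgCA in Pex11g, where capitals now mark letters shared with the repeat. Each shared 9 of 12 letters, as did that of Slc25a17, and 24.6% of all promoter windows reach 9. Pex11a reached 7, like 99.9% of windows, with gGtTCAtgGGTac. These are matches of letters in 300 bases and show neither binding nor its absence.

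Abcd3, also known as PMP70, imports long and branched acyl-CoA and is one of the most abundant proteins of the peroxisomal membrane. Its bright probeset 1416679_at had a control signal of 20392 and an EPA&DHA signal of 26202. The ratio was 1.28, and the log2 ratio of 0.36 was 1.82 local SDs from 0. The other probeset, 1443046_at, had signals of 4.05 and 27.0, too dim for a ratio to be of use. Abcd2, a transporter of very long chain acyl-CoA that is related to the adrenoleukodystrophy protein, had 4 probesets, none of them retained. Their signals ran from 5.14 to 32.6 in the control pool and from 1.55 to 12.5 in the EPA&DHA pool. All 8 values were below the dimmest mean signal retained, 3 of the 4 probesets were dimmer on EPA&DHA and 1 was brighter, and no ratio is given. Abcd4, the family member that works in the lysosome, stood at a log2 ratio of -0.03 by its brightest probeset and at -0.71 by a dim one.

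Slc25a17, or PMP34, exchanges coenzyme A, FAD and NAD across the peroxisomal membrane. Probeset 1424912_at had signals of 315 (control) and 397 (EPA&DHA), a ratio of 1.26 that lay 1.01 local SDs from a log2 ratio of 0. A dim probeset, 1450353_at, with signals of 52.3 and 37.5, was not retained. The protein belongs to the family of mitochondrial carriers. Slc25a20, a carrier of this family with a log2 ratio of 0.69, was counted with the genes of carnitine transfer below. Besides it, 35 others with an Slc25a name were measured. Their median log2 ratio was 0.07, and 4 of the 35 had a higher ratio than Slc25a17. Of the 35, 2 passed 1.5-fold upward and 0 downward. They were Slc25a33, a carrier of pyrimidine nucleotides, with signals of 264 and 710, and Slc25a30, with a log2 ratio of 0.63. The lowest was the citrate carrier Slc25a1 at -0.46.

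Crot moves medium chain acyl groups made by peroxisomal β-oxidation from coenzyme A to carnitine. Probeset 1450966_at had signals of 7300 (control) and 10227 (EPA&DHA), and the dim probeset 1440474_at had 89.9 and 123. Both were higher on EPA&DHA to nearly the same extent, with ratios of 1.40 and 1.36, under the 1.5-fold used for the counts. On the bright probeset the log2 ratio of 0.49 was 2.13 local SDs from 0, on the dim one it was 0.89 local SDs. Crot shared its direction with the other genes of carnitine transfer. Of 6 measured genes for carnitine acyltransferases and carnitine carriers, 6 had a log2 ratio above 0, 2 passed 1.5-fold upward and 0 downward, and the median was 0.48. The pair past 1.5-fold were carriers, Slc22a5, which takes up carnitine into the cell, from 4506 to 7651, and Slc25a20, which takes acylcarnitine into mitochondria, with a log2 ratio of 0.69. The enzymes had smaller ratios on their brightest probesets, with 0.48 for carnitine acetyltransferase Crat and for Cpt2 and 0.39 for Cpt1a. The dimmer probesets of Cpt1a stood higher, at 1.98 and 2.07. The lowest of the 6 was the transporter Slc22a4 at 0.36.

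**Figure D3:**
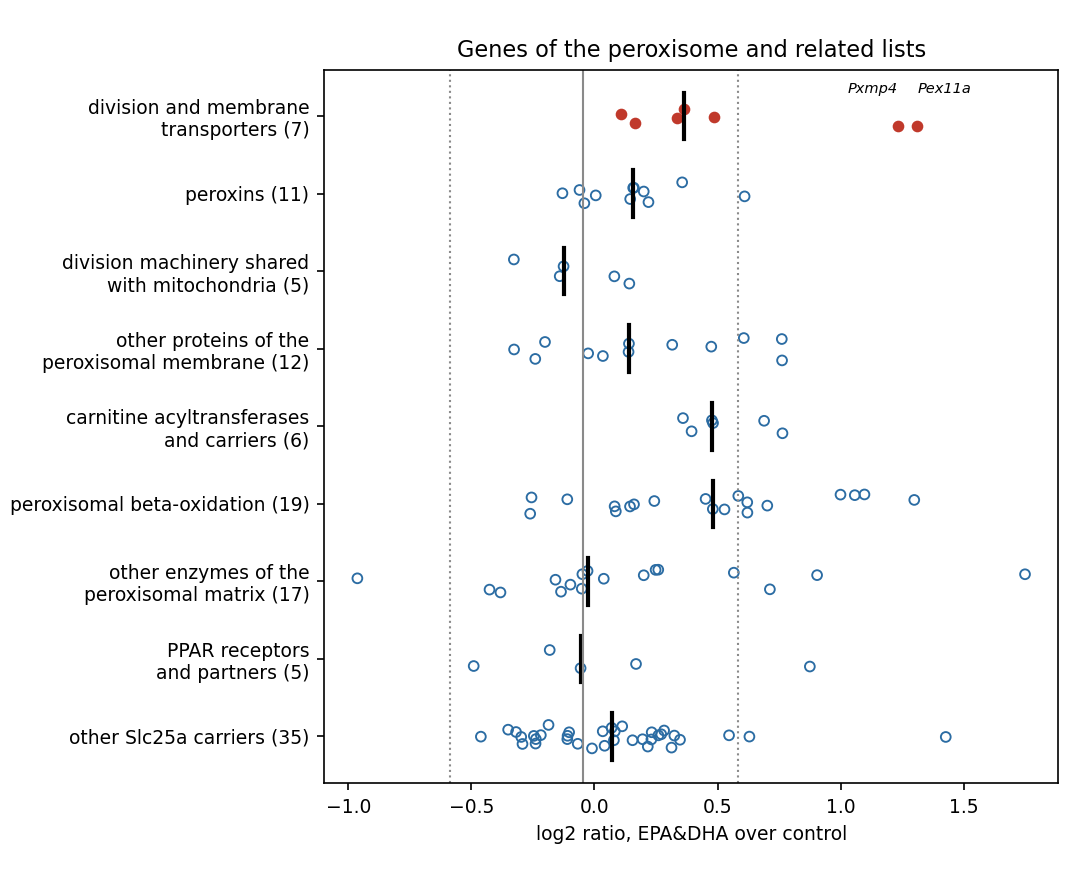
Log2 ratio of EPA&DHA over control (x axis) of each measured gene by its brightest retained probeset, for the genes described here (red, filled) and for 8 related lists (blue), with the number of genes in brackets. Black bars are medians, the grey line is the median of all measured genes (-0.05) and dotted lines mark 1.5-fold. Pex11a and Pxmp4 stand apart from the other 5 members, and the medians run from -0.13 for the division machinery to 0.48 for the carnitine genes and for peroxisomal β-oxidation.

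The genes that build peroxisomes or cut their membrane had smaller ratios than Pex11a. Of 11 measured peroxins, the proteins that insert membrane proteins and import enzymes, 1 passed 1.5-fold upward and 0 downward, and their median log2 ratio was 0.16. That one was Pex6, which recycles the import receptor, at 0.61 on its brightest probeset and from -0.18 to 0.62 on 4 others. The lowest was Pex7, the receptor for enzymes with the second type of import signal, at -0.13. The membrane biogenesis factors Pex3 and Pex19 had log2 ratios of 0.16 and 0.15. The machinery that cuts both peroxisomes and mitochondria had 5 measured genes, none of which passed 1.5-fold either way, and a median of -0.13. Its dynamin Dnm1l, which constricts the membrane, was at -0.13, its anchors Fis1 and Mff at 0.08 and 0.14, and Mief1, a further anchor, was lowest at -0.33. A dim probeset of Mff stood at 1.38, from signals of 54.6 and 142. Pex11a had a higher ratio than each of the 11 peroxins and of the 5 genes of the cutting machinery, by their brightest probesets.

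Among 12 other measured proteins assigned to the peroxisomal membrane, 3 passed 1.5-fold upward and 0 downward, and the median was 0.14. Acbd5, which binds very long chain acyl-CoA and tethers peroxisomes to the endoplasmic reticulum, had signals of 3482 (control) and 5905 (EPA&DHA), while a dim probeset went the other way, from 97.5 to 38.1. Mpv17, now placed mainly in the inner membrane of mitochondria, had signals of 267 and 453. Slc27a2, which activates very long chain fatty acids, had a log2 ratio of 0.61. Mpv17l2, a relative of Pxmp2 that acts in mitochondria, was lowest at -0.33. By brightest probesets, Pxmp4 had a higher ratio than all 12 of these genes, and Pxmp2 a lower one than 7 of them.

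Genes for the enzymes inside peroxisomes were divided. Of 19 measured genes of peroxisomal β-oxidation, 7 passed 1.5-fold upward and 0 downward, and the median of 0.48 was close to the log2 ratio of Crot. None of the 19 had a higher ratio than Pex11a, and the only one above Pxmp4 was Acox2, the oxidase of branched chains, with signals of 650 (control) and 1599 (EPA&DHA). The thiolase Acaa1b, which completes each round, had signals of 10648 and 22770. Eci2, an isomerase needed for unsaturated chains, and the thioesterase Acot4 followed with log2 ratios of 1.06 and 1.00 on their brightest probesets. Acaa1b, at 1.10, and Eci2 lay above the 1.01 that Pxmp4 had as the mean of both its probesets. Hsd17b4, the multifunctional protein for branched and very long chains, stood at 0.70 (log2 ratio) by its brighter probeset and at 0.99 by the dimmer one. The reductase Decr2 and Nudt7, which hydrolyses coenzyme A, were nearer the threshold, with log2 ratios of 0.62 each on their brightest probesets. A dim probeset of Nudt7 stood at 1.31, level with Pex11a, from signals of 52.7 and 131. The lowest of the 19 was the sterol carrier Scp2, at -0.26 on its brightest probeset, while another of its probesets stood at 0.72. The other 17 measured matrix enzymes had a median of -0.03, and 3 passed 1.5-fold upward and 1 downward. Nudt12, which hydrolyses NADH and related nucleotides, was highest, with signals of 268 (control) and 899 (EPA&DHA). Catalase (Cat), which removes the hydrogen peroxide made by the oxidases, went from 7709 to 12632, a ratio of 1.64, and on its other probeset the ratio was 2.01. The oxidase Hao2, from 57.0 to 107, and the lowest gene, the urate oxidase Uox, from 108 to 55.4, were dim, with local SDs of 0.63 and 0.59. Agps, which makes ether lipids in the peroxisome, stood at -0.43 and its partner Gnpat at 0.57.

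Of the receptors that bind fatty acids at such genes, among 5 measured PPAR and RXR genes, 1 passed 1.5-fold upward, Ppara, and 0 downward. Its 3 probesets had log2 ratios of 0.87, 0.93 and 0.95. Ppard was lowest, at -0.49, and Rxra, the partner of PPARs, stood at -0.06.

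The tissue label was checked against marker genes. Of 7 measured markers of absorptive enterocytes, 0 were at least 1.5-fold apart, and their summed signal was 255208 in the control pool and 220396 in the EPA&DHA pool. The methods describe scraped epithelial cells and the sample titles name only intestine, and the 5 measured markers of smooth muscle had signals from 79.3 to 851. Markers of the exocrine pancreas, the gland that secretes digestive enzymes, moved with the diet as Pex11a and Pxmp4 did: 6 of 6 measured passed 2-fold upward, and their summed signal went from 2226 to 8298. Of 5 markers of B and plasma cells, 3 passed 1.5-fold downward and 0 upward, and their summed signal, most of it from Jchain, went from 12798 to 15785. None of the measured markers was at 0 on either array, which the filter on mean signal had already ensured. The part of either cell type in the ratios of the 7 genes was not tested.

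**Figure D4:**
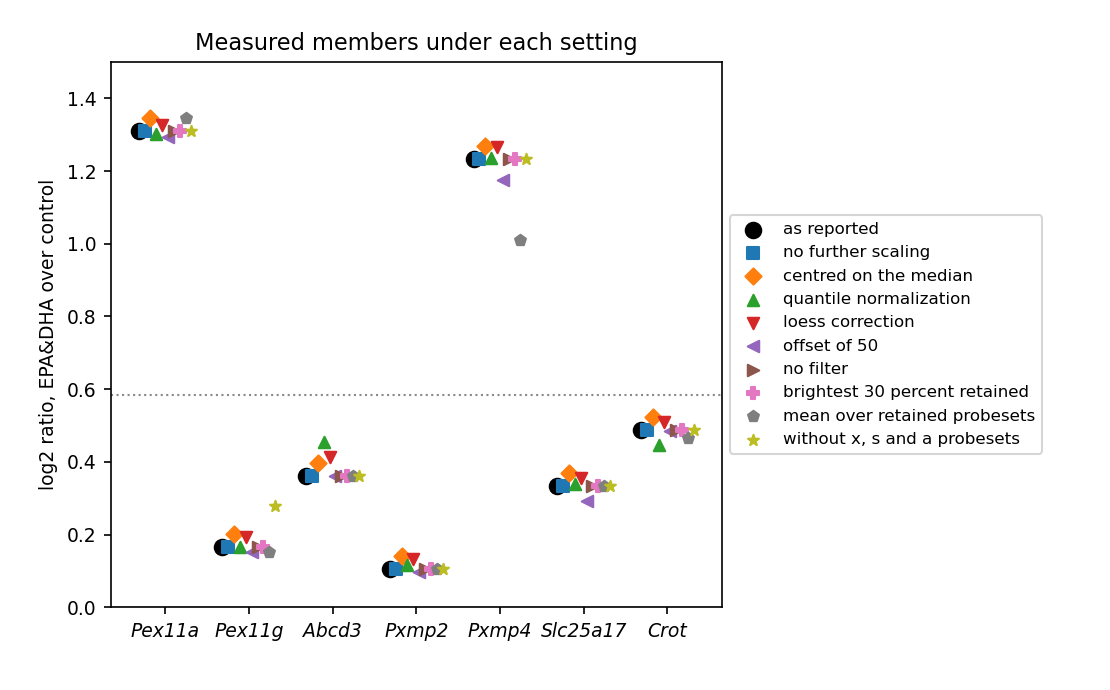
Log2 ratio of EPA&DHA over control (y axis) of the 7 measured genes as reported (black circles) and under 9 other settings of scaling, offset, filter and choice of probeset (coloured symbols). The dotted line marks 1.5-fold. Pex11a and Pxmp4 stay above the line and the other 5 genes between 0 and the line under every setting shown.

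The order of the genes changed little with the processing. Over the settings plotted, Pex11a lay between 1.29 and 1.35, Pxmp4 between 1.01 and 1.27, and Crot between 0.45 and 0.52. Abcd3 ranged from 0.36 to 0.45, Slc25a17 from 0.29 to 0.37, Pex11g from 0.15 to 0.28 and Pxmp2 from 0.10 to 0.14. Neighbours in this order from Crot downward lay less than 1 local SD apart as reported.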

How the data were processed

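RNA from small intestine was pooled per diet and hybridized by the authors to 1 Affymetrix MOE430_2 array each. The deposited values are MAS5 signals, scaled by the authors to a 2% trimmed mean of 500.0. Detection calls and change p-values were not used. Of 45101 probesets, 34945 named 1 gene in the platform annotation, and names were updated to RefSeq (GRCm38.p6).

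Both arrays were brought to an equal trimmed mean, and log2 ratios were taken without a pseudocount. The brightest 54% of probesets were retained. All probesets of the 8 genes were described, and of each list the genes past 1.5-fold, the highest, the lowest and relatives of a member, the last chosen after their values were seen. Members and lists were chosen with earlier results of these data known. The calculation was tested on simulated data. Alternatives were 4 scalings, an offset of 50, 2 filters and 2 choices of probeset. Tools were pandas 2.3.3 and numpy 2.4.6 in Python 3.11.15, statsmodels 0.14.6 for the loess and matplotlib 3.10.9.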

Additional observations from a re-analysis of the deposited data

How the results depend on the processing

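Under 8 of the 9 alternatives, 2 members passed both 1.5-fold and 2-fold upward and 0 passed 1.5-fold downward. Without a filter Abcd2 entered at a log2 ratio of 1.16, from signals of 5.62 and 12.5, and made it 3 of 8. The log2 ratios of the 7 measured members stayed within 1 local SD of the reported value in all 63 recalculations. Many of these could not move a member. The deposited signals already had equal trimmed means, and the 2 filters left each brightest probeset in place. Abcd3, Pxmp2 and Slc25a17 had only 1 retained probeset to average, and leaving out x, s and a probesets changed only Pex11g. The number of all probesets at least 1.5-fold apart depended on the setting: it was 4118 as reported, 2191 with an offset of 50, 18846 without a filter (of 45101) and 1041 among the brightest 30% (of 13530). The share of all measured genes past 1.5-fold upward was then 3.63%, 14.5% and 3.54%. No paired analysis was possible because each diet had 1 array, and no replicate could be left out. Low signal limited Abcd2 and the dim probesets of Abcd3 and Slc25a17.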

Other observations

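Genes next to a member on the chromosome (order of protein-coding genes in GRCm38.p6) gave values for 8 neighbours of 5 members. Tmem243, beside Crot, had a ratio of 1.37 (signals of 2733 for control and 3731 for EPA&DHA), close to the 1.40 of Crot, while Abcb4 on the other side, a transporter of phosphatidylcholine, had a ratio of 1.16 at signals of 97.0 and 112. The genes on either side of Abcd3 lay in opposite directions, F3 (tissue factor) from 76.6 to 150 and Arhgap29 from 425 to 232. The neighbours of Pxmp2, Pgam5 and Pole, had ratios of 1.02 and 1.15. Arhgef18 beside Pex11g stood at -0.13 on the log2 scale, and St13 beside Slc25a17 at -0.19.

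Probesets of 1 gene did not always go together: in Acaa1a, a thiolase of peroxisomal β-oxidation, the brightest had a log2 ratio of -0.26 and the next 0.90, and in the sterol carrier Scp2 they ranged from -0.29 to 0.72.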
